A study of Mus musculus with 21 samples.

Results

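The genes described here are 9 markers of B cells and of the plasma cells that arise from them, read from the rows of 1 table of raw counts of the mouse cecum that lists 25361 gene identifiers. They were taken by name, but were chosen with earlier results of these data known. The B cell genes were Cd79a, Cd79b, Ms4a1, Cr2 and Pou2af1, and the plasma cell genes were Jchain, Mzb1, Prdm1 and Tnfrsf17, which gives 5 of one kind and 4 of the other. C57BL/6 mice, a common inbred strain, were put on the Total Western Diet at 3 weeks of age, stayed on it for 6 weeks, and then received it for 3 more weeks with broccoli powder at 0% (6 libraries), 0.5% (5 libraries), 1.0% (5 libraries) or 2.5% (5 libraries). All groups therefore shared the Western-type diet, including the 0% group, and no group on standard chow was analysed here. The series asks how broccoli in the diet relates to gene expression of the host and of its gut bacteria.

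The cecum is the blind-ended first section of the large intestine, and its wall holds lymphoid follicles and scattered plasma cells. B cells carry an antigen receptor made of membrane immunoglobulin and the signalling pair encoded by Cd79a and Cd79b. On activation some become plasma cells, which in the gut mostly secrete immunoglobulin A. There the J chain, encoded by Jchain, joins IgA units into the polymeric form that the epithelium carries into the lumen.

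Library totals ran from 28514263 to 58594569 counts, and a count of 3, used here as the detection floor, came to between 0.0475 and 0.0992 CPM (the count scaled by the library total and its TMM factor). A list of small intestine and Paneth cell markers set 6 libraries apart, with a mean log2 CPM of the list between 3.65 and 6.09 against 1.74 to 2.57 in the other 15. These were 0% replicate 5, 0.5% replicates 1 and 4, 1.0% replicate 1, and 2.5% replicates 1 and 2. Log2 changes without these 6, which leave 5 mice at 0%, 3 at 0.5%, 4 at 1.0% and 3 at 2.5%, are given with the genes, and none of them passed edgeR's test. In such bulk tissue, fewer cells of a type and less RNA per cell cannot be told apart.

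The promoters of these genes are where B lineage factors act, so the 250 bases before the RefSeq start are shown for 4 of the genes. Pou2af1, Cd79a and Jchain are shown because their levels tended to vary together across mice, and Prdm1 because its level did not follow them. The sequences are from RefSeq on GRCm38.p6, which held a window for 6 of the 9 genes. In each, capitals mark a match to a motif named below, and the last base lies next to that start. The window of Pou2af1 is chr9:51213440-51213689 on the plus strand, that of Cd79a is chr7:24897247-24897496 on the plus strand, that of Jchain is chr5:88527898-88528147 on the minus strand, and that of Prdm1 is chr10:44458749-44458998 on the minus strand. GENCODE starts Cd79a 116 bases upstream, within the window, and starts the first coding transcript of Prdm1 at the RefSeq start. A noncoding transcript of Prdm1, of the retained intron type, starts 69753 bases farther upstream, so that window lies inside the GENCODE span of the gene.
Pou2af1: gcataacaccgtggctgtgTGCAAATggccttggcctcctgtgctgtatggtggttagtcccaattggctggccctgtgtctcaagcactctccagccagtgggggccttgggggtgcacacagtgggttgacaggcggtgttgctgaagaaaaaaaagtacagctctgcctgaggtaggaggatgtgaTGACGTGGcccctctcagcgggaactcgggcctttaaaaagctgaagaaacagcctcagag
Cd79a: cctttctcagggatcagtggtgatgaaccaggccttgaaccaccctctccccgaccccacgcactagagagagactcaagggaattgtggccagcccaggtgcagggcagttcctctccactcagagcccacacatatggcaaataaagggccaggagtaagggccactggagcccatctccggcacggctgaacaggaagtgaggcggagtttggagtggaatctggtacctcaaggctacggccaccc
Jchain: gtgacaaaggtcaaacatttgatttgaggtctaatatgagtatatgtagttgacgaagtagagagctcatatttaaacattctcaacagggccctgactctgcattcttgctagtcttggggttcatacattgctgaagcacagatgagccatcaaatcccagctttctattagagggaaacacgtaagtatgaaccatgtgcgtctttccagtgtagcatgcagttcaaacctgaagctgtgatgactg
Prdm1: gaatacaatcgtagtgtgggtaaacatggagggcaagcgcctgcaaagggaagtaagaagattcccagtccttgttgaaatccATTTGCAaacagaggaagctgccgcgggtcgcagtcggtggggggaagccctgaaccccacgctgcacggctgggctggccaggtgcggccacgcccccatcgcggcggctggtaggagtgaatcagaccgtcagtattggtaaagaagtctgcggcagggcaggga

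Motifs were searched on both strands of the 250 bases. The octamer ATGCAAAT, the site of the OCT factors for which Pou2af1 encodes a B cell coactivator, was in none of the 6 windows, and in 1.6% of all 32851 windows in the table. Its shorter core TGCAAAT, which every full octamer also holds, was in the window of Pou2af1 at positions -231 to -225 and, as ATTTGCA, in that of Prdm1 at -167 to -161, and in 3.56% of all windows. The sequence TGACGTGG, a site of the plasma cell and stress factor XBP1, was in the window of Pou2af1 at -61 to -54 and in 0.563% of all windows. CCCNNGGG, the core of the EBF1 site (11.8% of all windows), GAGGAAGT, a site of the ETS factor PU.1 (2.44%), and the E-box sequence CACGTGTC (0.502%) were in none of the 6. TGCAAAT and CACGTGTC were added after the windows had been read. These matches describe letters in a window and do not show binding. Only exact strings were searched, with N as any base, so a site that differs from its string was missed. A string found in no window therefore does not show that its factor has no site there.

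The levels of the genes spanned a wide range. Per kilobase of exon, the mean level over 21 libraries was 33.3 ± 19.8 CPM per kb (SD) for Jchain and 5.80 ± 1.76 CPM per kb for Prdm1. Next came Cd79a at 0.840 ± 0.287 and Pou2af1 at 0.693 ± 0.372 CPM per kb, which differed by less than their SD. Cr2 at 0.307 ± 0.0549, Cd79b at 0.276 ± 0.148 and Tnfrsf17 at 0.270 ± 0.194 CPM per kb also lay within their SD of each other. Ms4a1 was lowest of the detected genes, at 0.166 ± 0.0676 CPM per kb. The B cell genes were thus measured on few reads, with totals over all 21 libraries of 345 counts for Cd79b, 873 for Ms4a1, 1046 for Cd79a, 1522 for Pou2af1 and 2110 for Cr2, against 72205 for Jchain and 27067 for Prdm1. Of 25 other genes of a B cell list, 18 had a median under 5 CPM, among them Pax5, the factor that keeps B cell identity, at 0.604 CPM and Cd22, an inhibitory coreceptor, at 0.760 CPM. The other 7 were higher, led by the adaptor gene Blnk at 161.7 CPM, Swap70 at 76.1 CPM, Ebf1 at 42.1 CPM and Cd74, of antigen presentation, at 30.5 CPM; other cells of the gut wall also express several of these. These genes were picked as examples after their values were seen.

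In each of the 7 comparisons made across genes, no B cell gene and no plasma cell gene passed edgeR's quasi-likelihood test, with p-values adjusted by Benjamini-Hochberg over all 15652 tested genes. The filter on low counts kept 8 of the 9 genes, 5 of the B cell and 3 of the plasma cell kind. The share of all genes that passed was 0.00639% at 0.5% powder, 0.0% at 1.0% and 0.109% at 2.5%, each against 0%. It was 0.0% for the mean of the 3 broccoli diets against 0%, 0.147% for the slope per 1% powder, 0.0256% for any difference among the 4 diets and 0.0% for any difference among the 3 broccoli diets. With shares this low, a count of 0 among 8 genes is near the background. DESeq2, run as an alternative, called Prdm1 in 4 of the 7 comparisons and none of the other members. Those were 2.5% against 0%, where DESeq2 called 0.469% of the genes to which it gave an adjusted p, the slope (0.392%), the 4 diets (0.363%) and the 3 broccoli diets (0.426%). In the others it called 0.0103% at 0.5%, 0.0% at 1.0% and 0.0361% for the mean of the broccoli diets. At an unadjusted p under 0.05, Cr2 and Prdm1 were the members that passed at 2.5%, where 8.43% of all genes did, and on the slope, where 7.32% did. By the same measure both also passed for any difference among the 4 diets (6.41% of all genes) and among the 3 broccoli diets (5.88%). Cr2 passed for the mean of the broccoli diets (6.58%), and no member passed at 0.5% (7.14%) or 1.0% (3.18%). The libraries of a broccoli diet and of the 0% diet did not overlap in CPM for 0 of the 8 genes at 0.5% (0.505% of all genes), 0 at 1.0% (0.179%) and 1 at 2.5% (0.664%), which was Cr2.

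**Figure D1:**
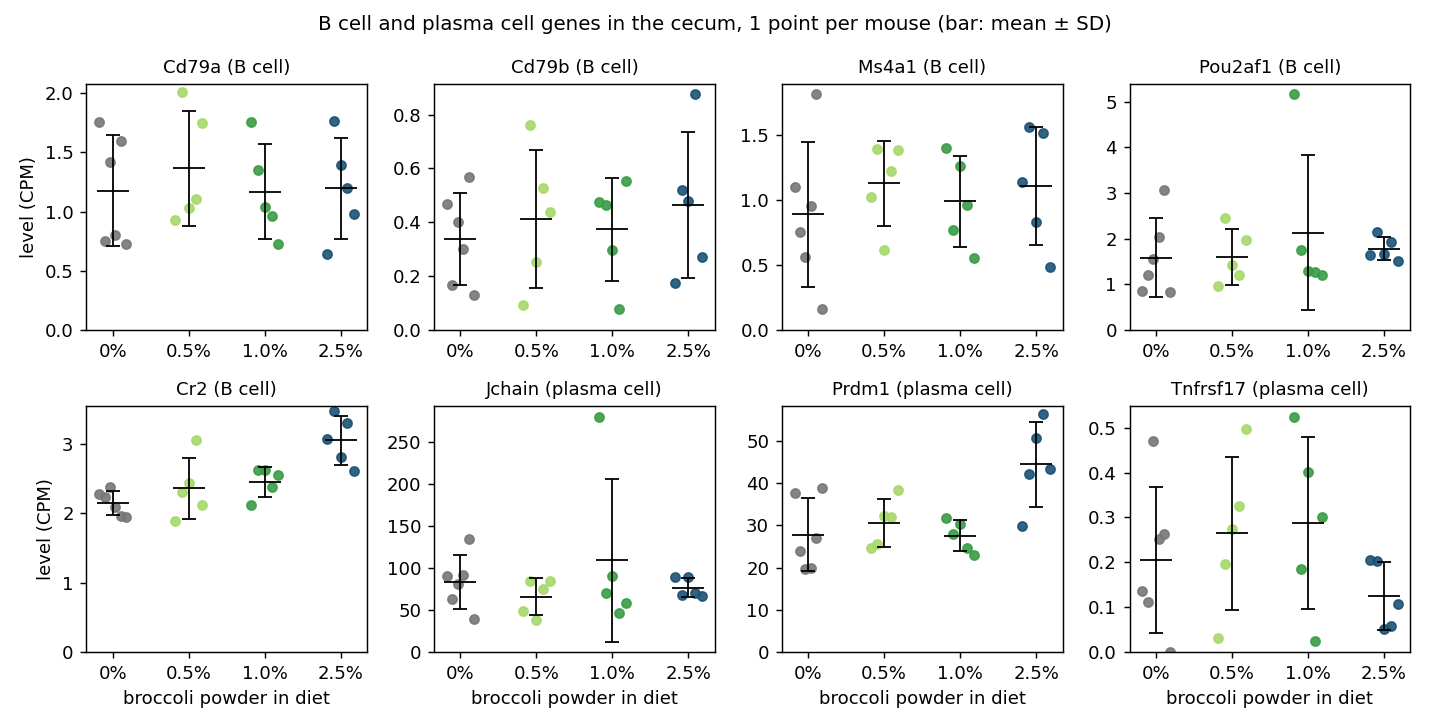
Level of each detected B cell and plasma cell gene in CPM (y axes, from 0) against the percent of broccoli powder in the diet (x axes). Points are mice, and black bars are the mean ± SD of 6 mice at 0% and 5 at each other dose; the 5 mice at 2.5% lie above all 6 at 0% for Cr2, and 4 of 5 do for Prdm1.

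Cd79a and Cd79b, which encode the paired signalling chains of the antigen receptor, showed no shift between diets larger than the spread between mice. Cd79a was at 1.76, 0.755, 1.41, 0.805, 1.60 and 0.727 CPM in the 6 mice at 0%, and at 0.644, 1.77, 1.39, 1.20 and 0.977 CPM in the 5 at 2.5%. These groups overlapped, with 1 mouse at 2.5% above all controls and 1 below. The log2 change of Cd79a was 0.21 ± 0.30 (SE) at 0.5%, -0.02 ± 0.30 at 1.0% and 0.02 ± 0.31 at 2.5%. Cd79b lay between 0.0783 and 0.875 CPM over all mice, from 3 to 35 counts. Without the 6 libraries that stood apart, the log2 change of Cd79a was 0.54 ± 0.32, -0.11 ± 0.31 and 0.12 ± 0.34 at the 3 doses. For Cd79b the log2 change was 0.27 ± 0.50, 0.13 ± 0.50 and 0.42 ± 0.50 at the 3 doses, so a change of the size of 1 SE could not be told from none at this depth. Without the 6 libraries it was 0.68 ± 0.56, 0.26 ± 0.53 and 0.85 ± 0.57.

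Ms4a1, which encodes the B cell surface protein CD20, was widely scattered. At 0% it ranged from 0.165 CPM in replicate 6 to 1.82 CPM in replicate 5, and at 2.5% from 0.488 to 1.56 CPM. No mouse on any broccoli diet lay outside the range of the controls. The log2 change was 0.33 ± 0.39 at 0.5%, 0.13 ± 0.39 at 1.0% and 0.29 ± 0.39 at 2.5%, and without the 6 libraries 0.67 ± 0.45, 0.31 ± 0.43 and 0.40 ± 0.47. Control replicate 6 was also lowest of the controls in Cd79a, Cd79b and Pou2af1, and had no Tnfrsf17 count.

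Pou2af1, the coactivator of OCT factors in B cells, had 1 mouse far from the rest. At 1.0%, replicate 1 had 5.16 CPM, and the 4 other mice had 1.75, 1.29, 1.28 and 1.20 CPM; the controls ran from 0.826 to 3.06 CPM. The log2 change at 1.0% was 0.41 ± 0.37 and was -0.22 without replicate 1, so its sign rested on that mouse. At 0.5% and 2.5% the log2 change was 0.00 ± 0.38 and 0.15 ± 0.38. Without the 6 libraries it was 0.57 ± 0.28 at 0.5%, 0.08 ± 0.27 at 1.0% and 0.39 ± 0.29 at 2.5%. The same mouse, 1.0% replicate 1, was highest of all 21 in small intestine markers.

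Cr2, which encodes complement receptor CD21 of mature B cells and of follicular dendritic cells, varied least between mice. It was at 2.28, 2.24, 2.38, 2.09, 1.97 and 1.95 CPM at 0%. At 2.5% it was at 3.08, 3.47, 2.81, 3.30 and 2.60 CPM, all above the controls, a separation in that direction that 0.454% of all genes showed. The means were 2.15 ± 0.175 CPM (SD, n = 6) at 0%, 2.36 ± 0.439 at 0.5%, 2.46 ± 0.217 at 1.0% and 3.05 ± 0.352 CPM at 2.5% (n = 5 each). The log2 change at 2.5% was 0.50 ± 0.14, with an unadjusted p of 0.00172 and an adjusted p of 0.238 in edgeR's quasi-likelihood test. For this gene alone, an exact permutation test over the 462 splits of 6 and 5 mice gave a two-sided unadjusted p of 0.00216. That is the smallest p that these splits gave, in 1 of 24 such tests of 8 genes and 3 doses. Adjusted by Benjamini-Hochberg over the 24 permutation tests, it was 0.052. Those tests cover only members that were chosen with earlier results known, and this adjustment does not account for that choice. The slope was 0.20 ± 0.05 on the log2 scale per 1% powder, with an edgeR adjusted p of 0.195. Without the 6 libraries that stood apart, the log2 change at 2.5% was 0.41 ± 0.17 and the edgeR adjusted p 0.289, and the log2 change was 0.07 ± 0.17 at 0.5% and 0.22 ± 0.16 at 1.0%.

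The other B cell genes of a fixed list showed no common shift beside Cr2. Of 25 such genes, 24 were tested, and at 2.5% 13 were positive and 11 negative, with a median log2 change of 0.01 and none called. Of all genes tested, 46.9% were positive at 2.5%, with a median of -0.01. A broad list of follicle stroma genes, such as Cxcl13, the B cell attractant of follicles, was measured as well. Of its 17 tested genes, 4 were positive at 2.5%, and the median log2 change was -0.19, with none called. The summed level of this list ran from 156.5 to 217.5 CPM at 0% and from 152.9 to 172.5 CPM at 2.5%. The genes that weighed most in this sum were Ltbr, Cr1l and Ccl9, with medians of 60.1, 33.8 and 20.1 CPM. The median of Cxcl13 was 2.76 CPM, so the sum is not a measure of follicle content. Which cells the Cr2 value at 2.5% came from was not tested. In the germinal centre list, 4 of 12 tested genes were positive at 2.5%, with a median of -0.11 and none called. The log2 changes in that list ran from -0.29 to 2.06.

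**Figure D2:**
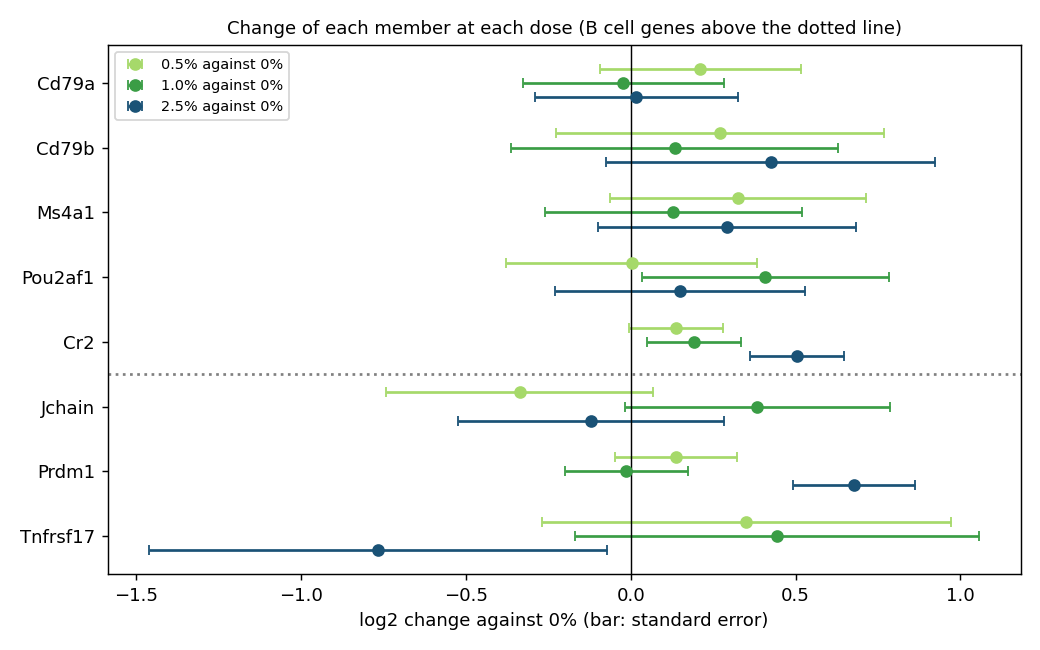
Log2 change of each gene against the 0% diet (x axis) at 3 doses of broccoli powder (colours), with standard errors as bars, for B cell genes above and plasma cell genes below the dotted line. Cr2 at 0.50 and Prdm1 at 0.68 stand farthest from 0 relative to their bars, both at 2.5%.

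Among the plasma cell genes, Jchain was by far the most abundant and showed no change with diet larger than its spread. It was at 90.2, 63.3, 81.0, 92.1, 133.8 and 39.9 CPM at 0%, and at 48.6, 84.4, 37.9, 75.2 and 84.3 CPM at 0.5%. At 1.0% it was at 279.2, 70.3, 90.1, 46.5 and 58.5 CPM, and at 2.5% at 88.9, 68.1, 89.8, 70.8 and 66.3 CPM. The groups overlapped at each dose, and 1.0% replicate 1 was the only mouse above all controls. The log2 change was -0.34 ± 0.41 at 0.5%, 0.38 ± 0.40 at 1.0% and -0.12 ± 0.40 at 2.5%. Without 1.0% replicate 1, the value at 1.0% was -0.33. Without 0% replicate 5, the value at 2.5% was 0.07. Without the 6 libraries the log2 changes of Jchain were -0.09 ± 0.32, -0.14 ± 0.30 and 0.04 ± 0.32 at the 3 doses. The 2 mice with the most Jchain, 1.0% replicate 1 and 0% replicate 5, were also the 2 highest in small intestine markers. The others of the 6 libraries lay within the range of the controls in Jchain. They were at 48.6 and 75.2 CPM (0.5% replicates 1 and 4) and at 88.9 and 68.1 CPM (2.5% replicates 1 and 2).

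Prdm1 encodes BLIMP-1, the repressor that drives the plasma cell programme and that also acts outside the B lineage, including in intestinal epithelium. It was at 37.6, 24.0, 19.6, 19.8, 27.0 and 38.8 CPM at 0%. At 2.5% it was at 29.8, 42.1, 50.5, 56.4 and 43.4 CPM, so that 4 of 5 mice lay above all controls and replicate 1 lay within their range. At 0.5% and 1.0% every mouse was within the range of the controls. The means were 27.8 ± 8.53 CPM (SD, n = 6) at 0%, 30.5 ± 5.66 at 0.5%, 27.5 ± 3.64 at 1.0% and 44.4 ± 10.02 CPM at 2.5% (n = 5 each). The log2 change at 2.5% was 0.68 ± 0.19, with an unadjusted p of 0.00153 and an adjusted p of 0.231 in edgeR's quasi-likelihood test. An exact permutation test of this gene at 2.5%, 1 of 24 such tests, gave a two-sided unadjusted p of 0.0260. Adjusted by Benjamini-Hochberg over the 24 permutation tests, it was 0.294, which again does not account for the choice of members. DESeq2 gave a log2 change of 0.68 and an adjusted p of 0.0324. Without the 6 libraries that stood apart, the log2 change was 0.84 ± 0.21 and the edgeR adjusted p 0.0927, with 0.20 ± 0.22 at 0.5% and -0.08 ± 0.20 at 1.0%. The edgeR adjusted p for any difference among the 3 broccoli diets was 0.687, from the fit of all 21 libraries. That of DESeq2 was 0.00406, from a fit without the 0% libraries, so these tests differ in libraries as well as in method.

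Tnfrsf17 encodes BCMA, a receptor of the survival signals BAFF and APRIL on plasma cells, and was at the edge of detection. The controls had between 0 and 20 counts, and mice at 0.5% between 1 and 25. At 1.0% the range was 1 to 22 counts, and at 2.5% it was 2 to 7. All 5 mice at 2.5% were below the control mean of 0.206 CPM, yet within the range of the controls. The log2 change at 2.5% was -0.77 ± 0.70 (edgeR adjusted p = 0.779), with 0.35 ± 0.62 at 0.5% and 0.44 ± 0.61 at 1.0%. The value at 2.5% was -0.35 without 0% replicate 3 and -1.45 ± 0.91 without the 6 libraries. At 0.5% it was 0.68 ± 0.71 and at 1.0% 0.21 ± 0.67 without those 6.

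Mzb1, which encodes a chaperone of immunoglobulin assembly, had a count of 0 in all 21 libraries, where 3 counts were worth at most 0.0992 CPM. On GRCm38 it lies at chr18:35647267-35649367 on the minus strand, almost wholly within the span of a gene listed as SPATA24 on the same strand. Of its exonic bases, 57.2% were also exonic in SPATA24, which had 391 counts in all. Among protein-coding genes of the table, 34.2% of the 365 with over 50% of their exonic bases shared on the same strand had no count, against 13.9% of the 20339 with none shared. The part of this overlap in the Mzb1 value was not tested, so the 0 cannot be read as absence of the RNA. The plasma cell genes Ccr10, a chemokine receptor, and Cd27, a receptor of the TNF family, were also listed at 0 in all libraries, and shared no exonic bases with another gene.

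No gene passed among the rest of the plasma cell programme. Of 20 further genes of a fixed list, 18 were tested, and at 2.5% 6 were positive, with a median log2 change of -0.06 and none called. At 1.0%, 14 were positive with a median of 0.10, and at 0.5%, 7 with a median of -0.04, beside medians of all genes within 0.01 of 0. Several genes of this list are not specific to plasma cells and were abundant: Xbp1, a secretory stress factor, had a median of 167.0 CPM, Sdc1, a proteoglycan also of epithelium, 197.0 CPM, and Cd38, an ectoenzyme, 168.0 CPM. More restricted genes were low, with a median of 1.28 CPM for Irf4, a factor of plasma cell differentiation, and 0.549 CPM for Derl3, of the protein degradation machinery of the endoplasmic reticulum.

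Immunoglobulin constant genes, the products of the plasma cells, were dominated by IgA and the kappa light chain. Igha ran from 58.2 to 543.2 CPM over all mice and Igkc from 74.9 to 644.1 CPM, while Ighm ran from 2.46 to 7.25 CPM and Ighd from 0.271 to 3.13 CPM. Per kilobase, Igha exceeded Ighm by a median ratio of 22.1 at 0%, 19.9 at 0.5%, 20.4 at 1.0% and 20.8 at 2.5%, so the ratio kept the same order of size at each dose. Of 12 constant genes 10 were tested, none was called, and at 2.5% 4 were positive. The log2 change of Igha was -0.41 ± 0.43, 0.48 ± 0.43 and -0.22 ± 0.43 at the 3 doses. Iglc1, a lambda light chain gene, had the largest value, a log2 change of 2.65 ± 0.80 at 1.0% with an edgeR adjusted p of 0.999. It was at 46.2, 2.82, 8.58, 1.18 and 4.63 CPM at 1.0%, against 0.959 to 3.28 CPM in the controls, and the highest value was again that of replicate 1. The genes of this family are similar in sequence, and how reads that match several of them were counted is not given in the sources used here.

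The genes did not vary as 1 block across mice. Over the 21 libraries, Spearman's rho of log2 CPM among Cd79a, Cd79b, Ms4a1 and Pou2af1 ran from 0.527 to 0.623, and 5 of these 6 pairs passed a permutation test with Benjamini-Hochberg adjustment over the 28 pairs of members. By Pearson's r, 1 of these 6 passed, and the adjusted p-values of the 5 by rho lay between 0.0449 and 0.0495. Cd79a and Cd79b, whose proteins form a pair, had a rho of 0.623 (permutation p = 0.00307, adjusted 0.0449) and a Pearson r of 0.640 (p = 0.00176, adjusted 0.0246). Cr2 stood outside, with rho between -0.06 and 0.41 to the 7 other genes and no pair passing. Prdm1 was likewise apart, with rho between -0.23 and 0.41 and no pair passing. Jchain followed Pou2af1 with a rho of 0.561 (permutation p = 0.00951, adjusted 0.0449) and an r of 0.767 (p = 0.00017, adjusted 0.00476), and Ms4a1 with a rho of 0.557 (permutation p = 0.00961, adjusted 0.0449) and an r of 0.560 (p = 0.0167, adjusted 0.0579).

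Among Cd79a, Cd79b, Ms4a1 and Pou2af1, the calls changed more than the sizes of rho when libraries were left out. Without the 2 libraries farthest from the median of the first gene of each pair, rho among the same 4 B cell genes ran from 0.491 to 0.660, and no pair of any kind passed by rho, while 4 of the 28 passed by r, against 2 with all libraries. In the 15 libraries low in small intestine markers it ran from 0.468 to 0.600, and again no pair passed, with fewer libraries. For Pou2af1 and Jchain the size changed as well, and r fell from 0.767 to 0.460 and to 0.442 in these sets. With the mean of each diet subtracted, 9 of the 28 pairs passed by rho, among them Pou2af1 with Jchain at 0.677. Values were shuffled there over all 21 libraries rather than within diets, so these p-values may be too small. The higher count of passing pairs therefore does not show a closer relation. Cr2 and Prdm1 had a rho of -0.03 after subtraction, against 0.41 before.

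**Figure D3:**
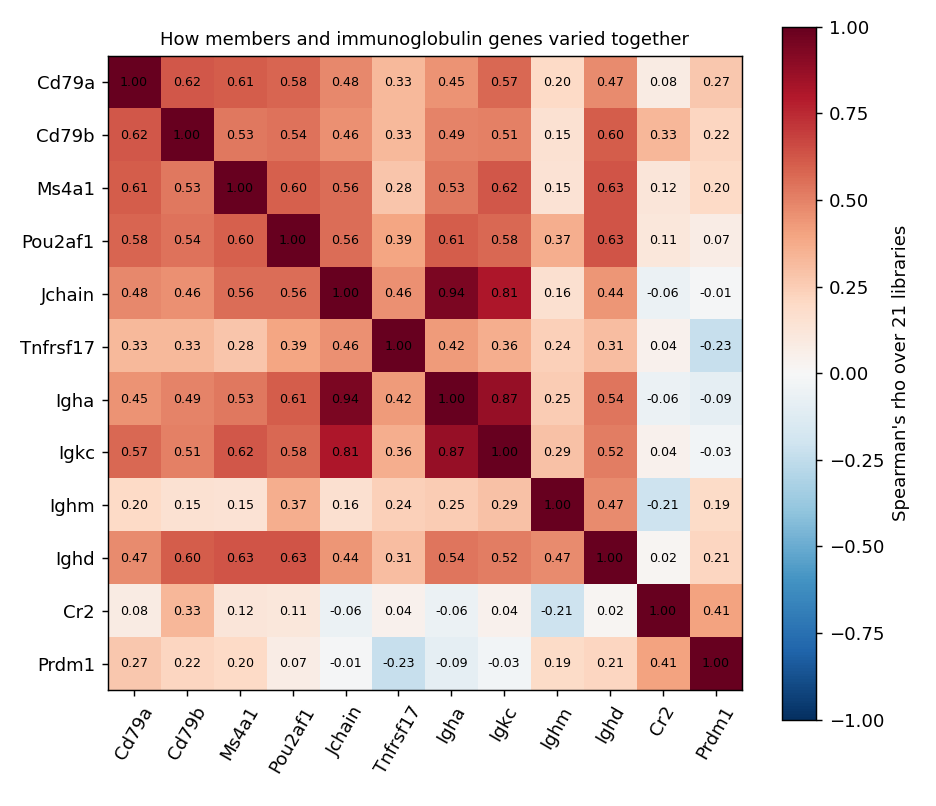
Spearman's rho of log2 CPM over 21 libraries for each pair of detected members and 4 immunoglobulin constant genes, with red for positive and blue for negative values. Jchain and Igha stand at 0.94, the B cell genes other than Cr2 form a red block, and the rows of Cr2 and Prdm1 are pale. The block is not particular to these B cell genes. Their rho is of like size with Ighd (0.47 to 0.63), Igkc (0.51 to 0.62) and Igha (0.45 to 0.61), and lower with Ighm (0.15 to 0.37).

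The genes most like each member set differed between Jchain and Prdm1. Among 14753 annotated genes ranked by rho over the 21 libraries, Jchain was most like Igha, with a rho of 0.939 and r of 0.970, followed by Igkc at 0.812 and Tlr9, a DNA sensor of B cells, at 0.809. Without the 2 libraries farthest from the median of Jchain, rho with Igha was 0.918, and in the 15 libraries low in small intestine markers it was 0.914. Prdm1 was most like Aff4, a subunit of the transcription elongation machinery, at 0.923 (0.932 in the 15 libraries), then Tmem170 at 0.904 and Rhou, a small GTPase, at 0.836. Its rho with Jchain was -0.01. Cr2 was most like Gpr19, an orphan receptor, at 0.773, which was 0.470 with the diet means subtracted. These 3 rankings, of single members, were added after values had been seen, and as the top of many genes they carry no test.

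**Figure D4:**
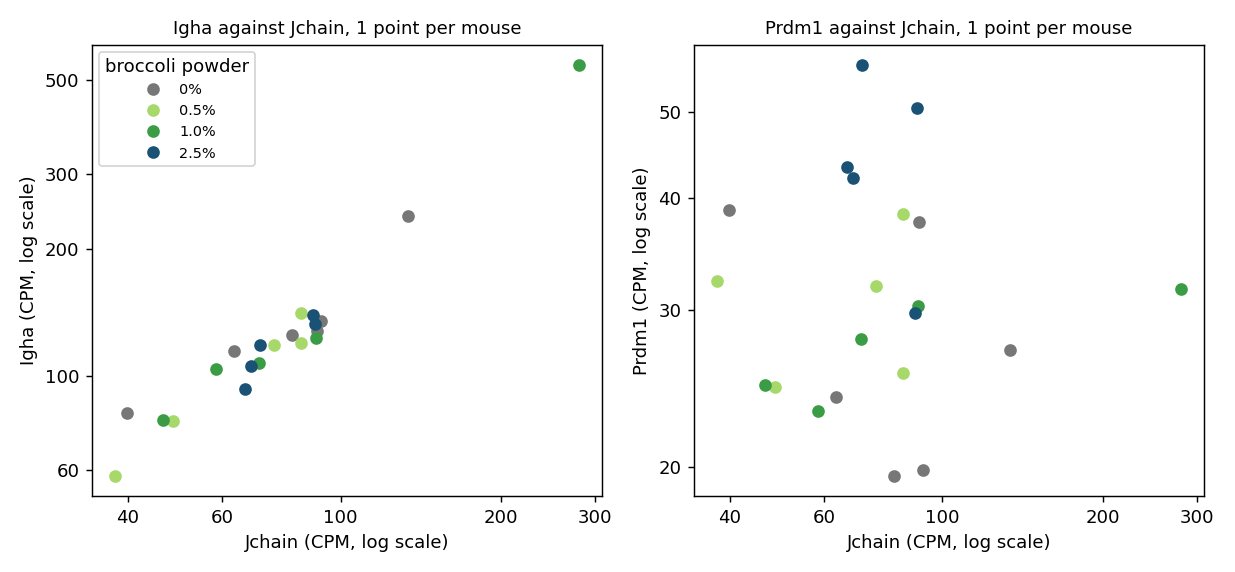
Level of Igha (left) and Prdm1 (right) against the level of Jchain, in CPM on log axes, with 1 point per mouse coloured by diet. Igha follows Jchain over the whole range, up to 543.2 CPM in the mouse with 279.2 CPM of Jchain, while Prdm1 shows no such relation (rho -0.01).

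Ranked against the mean of each member group, the nearest genes were of mixed kind. For the B cell genes the nearest were Ms4a6b at a rho of 0.769, H2-Ob, an antigen presentation gene of B cells, at 0.758, Mpeg1, a perforin of phagocytes, at 0.748, and Apol7c, Ggct and Slamf7 at 0.736 each. Tbx3, Csnk2a2, Tmf1 and Tnfrsf13c, the BAFF receptor, followed, down to 0.713. Of these 10, 3 were on a fixed list of B cell or plasma cell genes (H2-Ob, Slamf7 and Tnfrsf13c). For the plasma cell genes the nearest were Tlr9 at 0.791, Cfap61 at 0.740, Tbx3 at 0.716, Slc39a14 at 0.712, Clcn3 at 0.695, Adgre5 and Prpf18 at 0.688, Socs4 at 0.687, Mreg at 0.682 and Bach1 at 0.675. Of these, only Tlr9 was on such a list. That mean combined Jchain, Tnfrsf17 and Prdm1, and Prdm1 had a rho of -0.01 with Jchain and -0.23 with Tnfrsf17. The ranking therefore does not describe a pattern that the plasma cell genes shared. The B cell mean likewise included Cr2, which stood outside the other B cell genes.

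Lists for other cells of the wall were measured beside the members. At 2.5%, 4 of 15 tested T cell genes were positive with a median log2 change of -0.06, 1 of 12 macrophage genes with a median of -0.14, 1 of 10 smooth muscle genes with a median of -0.13, and 9 of 13 colon epithelium genes with a median of 0.10. Of 7 tested plasmacytoid dendritic cell genes, cells that share some B lineage genes, 4 were positive with a median of 0.02. None of these genes was called. For IgA transport and its signals, 3 of 10 tested genes were positive, with a median of -0.10. Small intestine genes were positive in 5 of 14, with a median of -0.72, blood genes in 0 of 4, with a median of -0.67, and mesenteric fat genes in 1 of 8, with a median of -0.70, again with none called. The part of these cells in the values of Cr2 and Prdm1 at 2.5% was not tested.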

How the data were processed

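RNA from the cecum of 21 mice was made into strand-marking mRNA libraries by adapter ligation, per the labels' protocols. The authors deposited raw counts per gene, and the submitters' processing notes name the build mm10; the aligner, counter, annotation and strand setting remain not given in the sources used here. Symbols, exon lengths and coordinates came from GENCODE mouse release 21 (GRCm38), which held 25268 of 25361 identifiers. Groups followed the diet label. Replicate numbers follow accession order and pair nothing. Animals are numbered in the labels and were taken as separate mice. With no cage given, p-values measure the spread between these samples.

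The gene test used edgeR 4.0.16 with R 4.3.3 (TMM, filterByExpr by diet, robust quasi-likelihood test, 1 fit of all 21 libraries), two-sided, called at an adjusted p under 0.05. DESeq2 1.42.0 was an alternative, and its test among the 3 broccoli diets left out the 0% libraries. CPM and log2 CPM (prior count 2) were computed from the counts. Permutation tests and correlations were run in Python 3.11.15 with scipy 1.17.1, correlations with 100000 resamples. Tests planned for all 9 members were run on 8, giving 24 exact tests and 28 pairs, because Mzb1 had no count. The edgeR test was tested on simulated counts.

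The genes named were all 9 members, called genes of 16 lists, all measured immunoglobulin constant genes, and the 10 genes most like each member group. Exceptions are stated where they occur; other list genes were named as examples, and some are not reported here. The members and lists were chosen with earlier results of these data known.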

Additional observations from a re-analysis of the deposited data

Results flagged for a closer look

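Pou2af1 in 1.0% replicate 1 was at 5.16 CPM, and the gap to the next mouse on that diet, at 1.75 CPM, took 0.748 of the range of the 5 mice in log2 CPM and 0.863 in CPM, over Dixon's 95% limit of 0.71. In CPM, a scale added after the data were seen, Jchain in the same mouse, at 279.2 CPM, also passed the limit, with a gap of 0.813 of the range to the next mouse at 90.1 CPM. Of 32 groups of mice tested, 1 passed in log2 CPM and 2 in CPM, where chance gives about 1 in 20. The same mouse was highest of all mice in Igha, Igkc, Iglc1 and small intestine markers.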

How the results depend on the processing

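With edgeR, no member was called under any alternative run: RLE or total-count scaling, no filter on low counts, a fit of the diets compared only, each library left out in turn, without animals numbered above 70, or without the 6 libraries set apart by small intestine genes. With DESeq2, 1 plasma cell gene, Prdm1, was called at 2.5%, on the slope, among the 4 diets and among the 3 broccoli diets; the cause was not tested. DESeq2 called 77 genes at 2.5%, 60 on the slope, 65 among the 4 diets, 63 among the 3 broccoli diets, 7 for the mean of the broccoli diets and 2 at 0.5%. The edgeR count of all genes at 2.5% ran from 0 (only the 2 diets compared) to 121 (without those 6 libraries), and on the slope from 0 (without 2.5% replicate 3) to 101 (without those 6). Of 40 signed changes of members, 18 changed sign under at least 1 alternative, 9 of these with a log2 change under 0.1 in size. Cr2 at 2.5% ran from 0.41 to 0.55, with an adjusted p from 0.111 to 0.613, and Prdm1 at 2.5% from 0.58 to 0.84, with an adjusted p from 0.0324 to 0.634 and from 0.0637 to 0.595 with each library left out. By rho, 5 B cell pairs, 0 plasma cell pairs and 2 cross pairs passed. With diet means subtracted, 3, 1 and 5 passed, by p-values that may be too small. Without the 2 farthest libraries, 0, 0 and 0 passed, and without those 6 libraries, 0, 0 and 0. No paired analysis was possible because the replicate numbers follow accession order. Depth limits Cd79b and Tnfrsf17, with at most 35 and 25 counts in a library, most.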
